A study of Mus musculus with 3 samples.

Results

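The 9 genes described here are Il1b, Il18, Il1rn, Il1r2, Nlrp3, Pycard, Casp1, Casp4 and Gsdmd, which encode inflammasome components and members of the interleukin-1 family. They were chosen by name, and all 9 were found among the 32285 genes listed for each library. Their levels were read in mouse spleen cells, by cell class, library and hashtag, with neutrophils and monocytes kept apart.

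Single-cell RNA sequencing of splenocytes gave 3 libraries, and every library pooled 2 conditions of 3 mice each, aged 12 to 14 weeks. CD3 microbeads had removed T cells from all of them. The control library held male C57Bl/6 mice with sham minipumps and female C57Bl/6 mice. The Ang II library held C57Bl/6 mice given angiotensin II by minipump from 10 weeks of age for 2 weeks, at a dose the labels give as 490 ug/kg/min, with either placebo or 2HOBA (2-hydroxybenzylamine, a scavenger of isolevuglandins). The B6.SLE123 library held mice of this lupus-prone strain given placebo or 2HOBA from 7 weeks of age for 6 weeks. Cells carried 1 of 6 hashtags (antibodies with a sequence tag, C0301 to C0306). The labels do not say which hashtag marks which condition. Hashtag populations are therefore shown singly, without a condition, and 2HOBA and sex were not compared. The control library mixes both sexes and is shared by both comparisons, B6.SLE123 against control and Ang II against control. Values written as a row of 3 follow the order control, Ang II, B6.SLE123. The study describes its B6.SLE123 mice as female, so strain and sex cannot be told apart. The sex of the Ang II mice is not given in the sources used here. Xist, which cells of females transcribe, had 0 UMIs (unique molecular identifiers, 1 per captured RNA molecule) in all Ang II hashtag populations of at least 10 neutrophils, monocytes of either class or dendritic cells. In neutrophils it ranged from 0 to 66.5 CPM (UMIs scaled to a fixed total) over the control hashtags and from 66.4 to 106 CPM over those of B6.SLE123, so Ang II and the sex makeup of its library cannot be told apart either.

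The NLRP3 inflammasome is a protein complex of myeloid cells. The sensor NLRP3 binds the adaptor ASC, the product of Pycard, which recruits pro-caspase-1, the product of Casp1. Active caspase-1 cuts the precursors of the cytokines IL-1β and IL-18 and cuts gasdermin D, the product of Gsdmd, whose fragment forms pores in the plasma membrane. Casp4 encodes the mouse caspase that answers lipopolysaccharide in the cytosol and also cuts gasdermin D. The product of Il1rn competes with IL-1 for its receptor, and the product of Il1r2 is a decoy receptor that binds IL-1 without signalling. Transcript levels do not show whether a precursor was cut or released.

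The 250 bases before the RefSeq start site (GRCm38.p6) are shown for Il1b and Nlrp3, the 2 members past 2-fold in B6.SLE123 neutrophils, and for Pycard, which lay mostly in other neutrophils than these 2 when cells were split by granule transcripts. Capitals mark matches to TTNNGNAA (a C/EBP-type motif) or GAGGAAGT (a PU.1-type motif) on either strand, and each sequence reads along its gene's strand.
Il1b, chr2:129371140-129371389, minus strand: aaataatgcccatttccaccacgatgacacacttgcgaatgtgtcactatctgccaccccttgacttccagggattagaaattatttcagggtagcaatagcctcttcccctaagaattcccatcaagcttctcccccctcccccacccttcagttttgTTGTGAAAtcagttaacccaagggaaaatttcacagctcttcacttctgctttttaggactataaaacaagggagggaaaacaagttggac
Nlrp3, chr11:59541319-59541568, plus strand: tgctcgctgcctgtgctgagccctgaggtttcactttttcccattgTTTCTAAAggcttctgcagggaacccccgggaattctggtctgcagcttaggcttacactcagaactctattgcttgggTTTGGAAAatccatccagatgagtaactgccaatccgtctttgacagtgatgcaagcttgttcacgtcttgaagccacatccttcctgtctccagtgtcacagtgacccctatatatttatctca
Pycard, chr7:127993868-127994117, minus strand: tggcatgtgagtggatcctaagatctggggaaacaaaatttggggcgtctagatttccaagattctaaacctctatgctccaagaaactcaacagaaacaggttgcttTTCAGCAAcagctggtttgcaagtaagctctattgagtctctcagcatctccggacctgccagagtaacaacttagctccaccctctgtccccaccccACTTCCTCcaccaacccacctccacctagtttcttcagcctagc

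The RefSeq table held windows for 8 of the 9 members, and Gsdmd is named only. The only Il1r2 window belongs to a start site 12014 bases from the GENCODE start given below, so its lack of matches does not describe that start. GAGGAAGT was found in 1 member, Pycard, 44 bases before its start and on the opposite strand, against 2.44% of all 32841 windows of this length. TTNNGNAA had 2 matches in Nlrp3 and 1 each in Il1b, Pycard and Casp4, and 36.9% of all windows held it. An NF-kB-type motif of 10 letters, GGG at one end and CC at the other with N between, was found in Il1rn, Nlrp3, Casp1 and Casp4, and 45.8% of all windows held it. All 3 motifs were sought on both strands, and a match to one may overlap another. A match describes letters only and is no evidence of binding.

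By GENCODE vM21 on GRCm38, Il1b lies on chr2:129364570-129371139 (minus strand) and Il1rn on chr2:24336853-24351494 (plus strand). Casp1 (chr9:5298517-5307265) and Casp4 (chr9:5308828-5336783) are neighbours on the plus strand, and Il18 lies on the same chromosome at chr9:50554827-50581840 (plus strand). Il1r2 is at chr1:40074079-40125231, Nlrp3 at chr11:59541568-59566956 and Gsdmd at chr15:75862327-75867408, all on the plus strand, and Pycard is at chr7:127989708-127993867 on the minus strand. The antisense gene Il1bos overlaps Il1b. It had 3, 7 and 4 UMIs in neutrophils of the 3 libraries, against 2154, 3605 and 935 for Il1b. The sources used here do not state whether strand was used in counting.

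The libraries held 16062 to 20691 barcodes and 44146350 to 63516694 gene UMIs. After filtering and removal of the 11.4% to 18.0% of barcodes with several hashtags, 15700, 14017 and 16702 cells were kept. Pairs of libraries shared 415 to 496 barcodes. Each kept cell was given a class by counting marker genes, none of them a member: 573, 627 and 589 neutrophils, 155, 71 and 131 classical monocytes and 164, 82 and 228 nonclassical monocytes. Levels are in CPM, the UMIs of a gene over all UMIs of the class, scaled to 1000000. Neutrophils and both monocyte classes had UMIs of every gene on their own marker list, and the 12 neutrophil markers summed to 373941, 417634 and 425127 CPM in neutrophils. The B6.SLE123 library was uneven. Its hashtag C0303 held 249 of the 589 neutrophils and 107 of its 125 cells with all 3 C1q genes, which are a separate class here. In the Ang II library hashtag C0303 held 257 of 267 T cells. All intervals below are exact 95% intervals that cover counting error only. With 1 library a group there is no replicate check and no p-value. In CPM, fewer cells expressing a gene and less RNA in each cannot be told apart.

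The 9 genes were highest in different cell classes. Among classes of at least 50 cells in the control library, Il1b, Il1rn, Il1r2 and Nlrp3 were highest in neutrophils, whereas Il18, Pycard, Casp1, Casp4 and Gsdmd were lower in neutrophils than in both monocyte classes in each library. In control neutrophils Il1b stood at 1786 CPM (1711 to 1863), Il1r2 at 138, Nlrp3 at 109 and Il1rn at 104 CPM. Pycard stood at 48.9, Gsdmd at 36.5, Casp4 at 34.8 and Casp1 at 30.7 CPM in the same cells, and Il18 had 1 UMI. Over the whole class Il1b was thus abundant in neutrophils, and Pycard, Casp1 and Casp4 stood far below it. Pycard and Casp1 were lowest in neutrophils among these control classes. Casp4 was not, as its interval (25.1 to 47.1 CPM) overlapped with that of nonclassical monocytes (42.5 CPM, 25.2 to 67.2). Neutrophils held 75.5%, 85.2% and 46.1% of all Il1b UMIs in the kept cells. Another 10.5%, 6.34% and 25.9% lay in cells given no single class, and C1q cells held 11.2% in B6.SLE123. For Il1r2 the neutrophil shares were 82.6%, 86.4% and 74.0%, with 9.95%, 6.46% and 17.4% in cells given no single class. B cells, the most abundant class, held 67.0%, 66.4% and 51.6% of the Pycard UMIs. The plot of levels by class shows this split for all 9 genes.

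**Figure D1:**
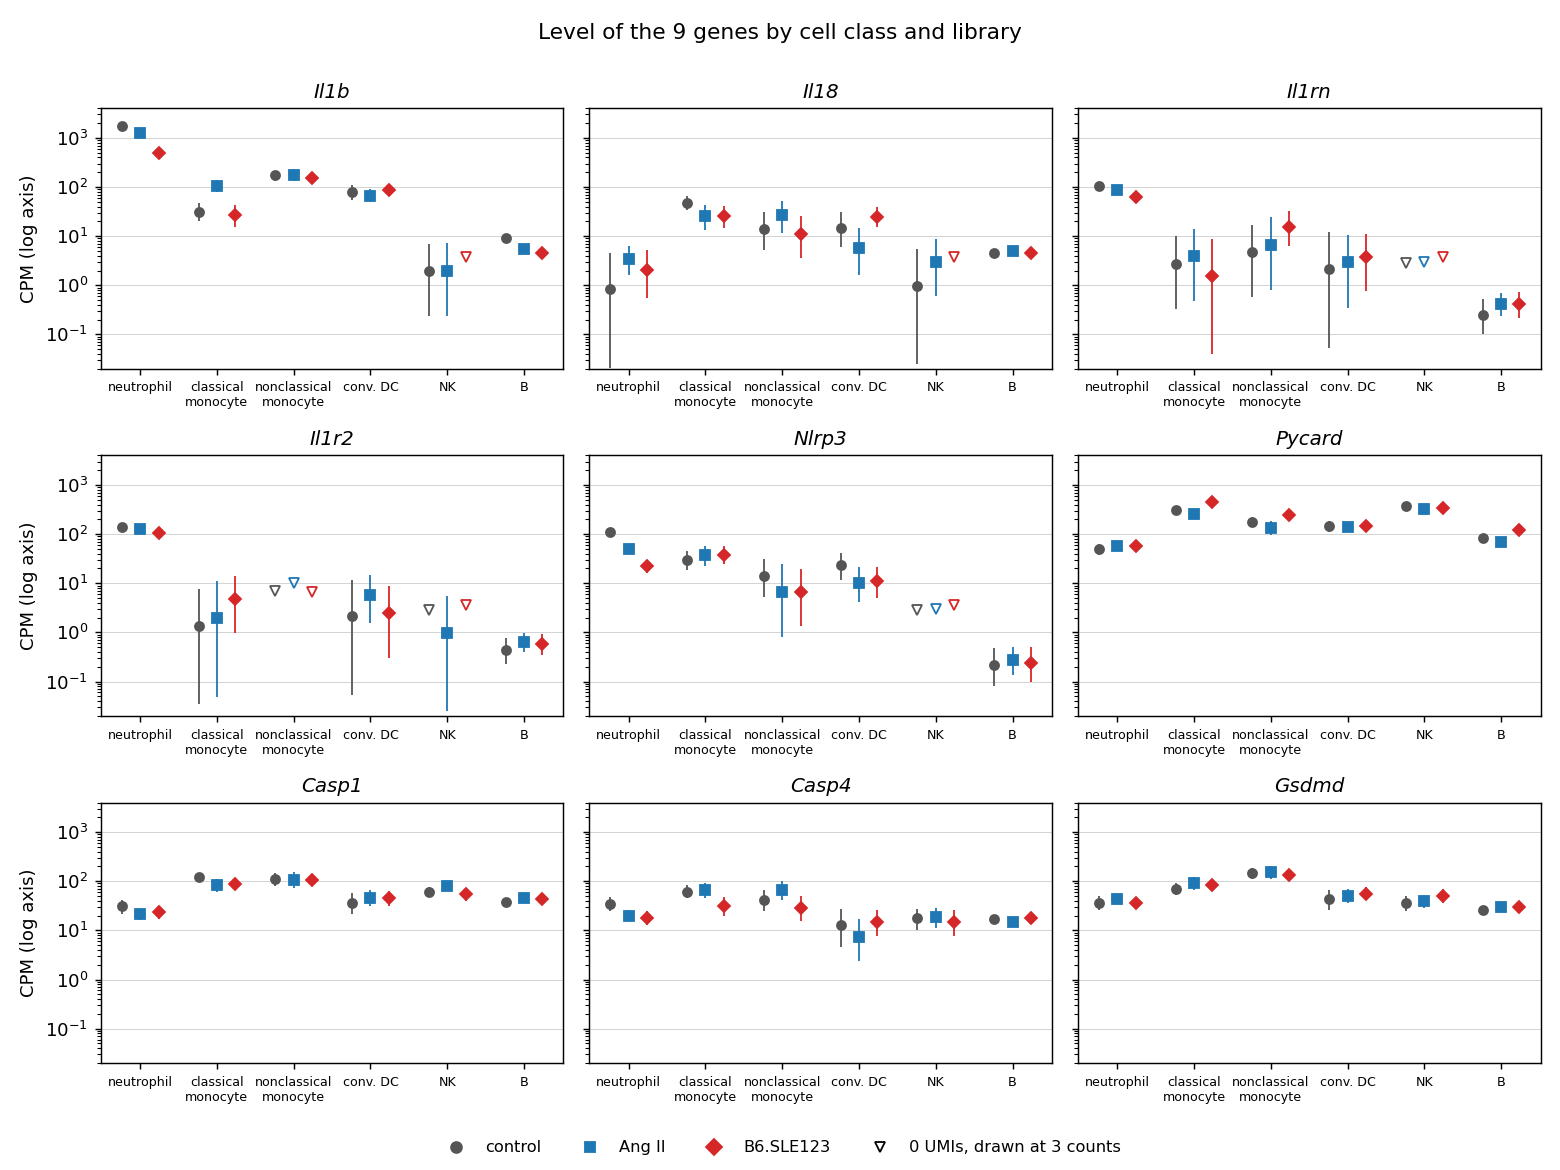
CPM of each member (log axis) in 6 cell classes of the 3 libraries, with exact 95% Poisson intervals. Open triangles mark a count of 0 and stand at the level that 3 counts would give. Of the 6 classes drawn, neutrophils are highest for Il1b, Il1rn and Il1r2, with Il1b at 1786, 1243 and 483 CPM, and Il1r2 has 0 UMIs in nonclassical monocytes of all 3 libraries.

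Levels of Il1b were ordered over classes of at least 50 cells only. The order in the control library was neutrophils, nonclassical monocytes (172 CPM, 135 to 217), conventional dendritic cells (78.9 CPM), classical monocytes (31.5 CPM) and B cells (9.16 CPM). No neighbours in this order had overlapping intervals. Red pulp macrophages were left out in control (29 cells, 9 Il1b UMIs of 41395) and in Ang II (41 cells, 8 of 40556), so their place there is not given. In the Ang II library nonclassical monocytes (174 CPM), classical monocytes (106 CPM) and dendritic cells (67.1 CPM) overlapped with their neighbours. In the B6.SLE123 library the C1q cells stood first for Il1b (798 CPM, 698 to 908), above neutrophils (483 CPM, 453 to 515), which overlapped with red pulp macrophages (395 CPM, 268 to 561). Nlrp3 stood alone at the top in control neutrophils, whereas the intervals of neutrophils and classical monocytes overlapped in Ang II (49.99 and 37.2 CPM) and in B6.SLE123 (22.2 and 37.7 CPM).

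At least 1 Il1b UMI was seen in 77.8% (74.2% to 81.2%), 60.4% (56.5% to 64.3%) and 40.9% (36.9% to 45.0%) of neutrophils, at median depths of 1185, 2138 and 1780 UMIs. In B cells, a class that should lack Il1b, the shares were 0.535%, 0.702% and 0.556% at 1784, 2757 and 1922 UMIs. With each cell thinned to 500 UMIs the neutrophil shares were 66.3%, 53.6% and 35.0% and the B cell shares 0.229%, 0.281% and 0.169%. In neutrophils the order of the libraries was the same with and without thinning, whereas in B cells control and B6.SLE123 changed places.

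In neutrophils, 2 of the 8 members with at least 50 UMIs over both libraries were past 2-fold in B6.SLE123 against control, Il1b and Nlrp3, both lower. Over all 4505 genes with this depth, 7.26% were past 2-fold lower and 5.42% higher. The median log2 ratio was -0.57 over the 8 members and -0.063 over all genes. A gene was counted as past 2-fold when its CPM differed at least 2-fold and the interval of the log2 ratio left out 0. In Ang II against control 1 of 8 was past 2-fold, Nlrp3, lower, against 1.92% of 5107 genes lower and 1.96% higher, with medians of -0.39 and -0.044. The hashtag ranges of all members overlapped with those of control in both comparisons. For neutrophils of all genes 0.888% lay lower and 0.932% higher in every B6.SLE123 hashtag population than in every control one, and 0.529% lower and 0.822% higher in Ang II.

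Il1b, the precursor of the inflammasome's main cytokine, stood at 2521, 921, 2849, 2768, 1894 and 3071 CPM in control neutrophils of hashtags C0301 to C0306. In the Ang II library the values were 1192, 1086, 1510, 759, 2037 and 2048 CPM. In the B6.SLE123 library they were 948, 553, 218, 904, 1089 and 1985 CPM. The ranges of all 3 libraries overlapped. Control C0302 was low among its neighbours and B6.SLE123 C0306 (24 cells) high, and the B6.SLE123 and control ranges overlapped through these 2 populations. Ang II C0305 and C0306 also lay above control C0305. Over the whole class B6.SLE123 neutrophils stood 3.70-fold lower than control, a log2 ratio of -1.89 (-1.999 to -1.78), and Ang II neutrophils 1.44-fold lower, a log2 ratio of -0.52 (-0.60 to -0.45). Without B6.SLE123 hashtag C0303 the first was -1.14, and without control hashtag C0302 it was -2.24. With the study's cell limits read as UMIs rather than genes it was -1.08, and the Ang II ratio turned to 0.41. With each cell given equal weight the ratios were -0.92 and -0.07. The 3 C1q markers summed to 14.98 CPM in B6.SLE123 neutrophils and had no UMI in control ones, and their part in the result was not tested. Per cell, 10 or more Il1b UMIs were seen in 6.81%, 24.6% and 2.55% of neutrophils, at the unequal depths given above.

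**Figure D2:**
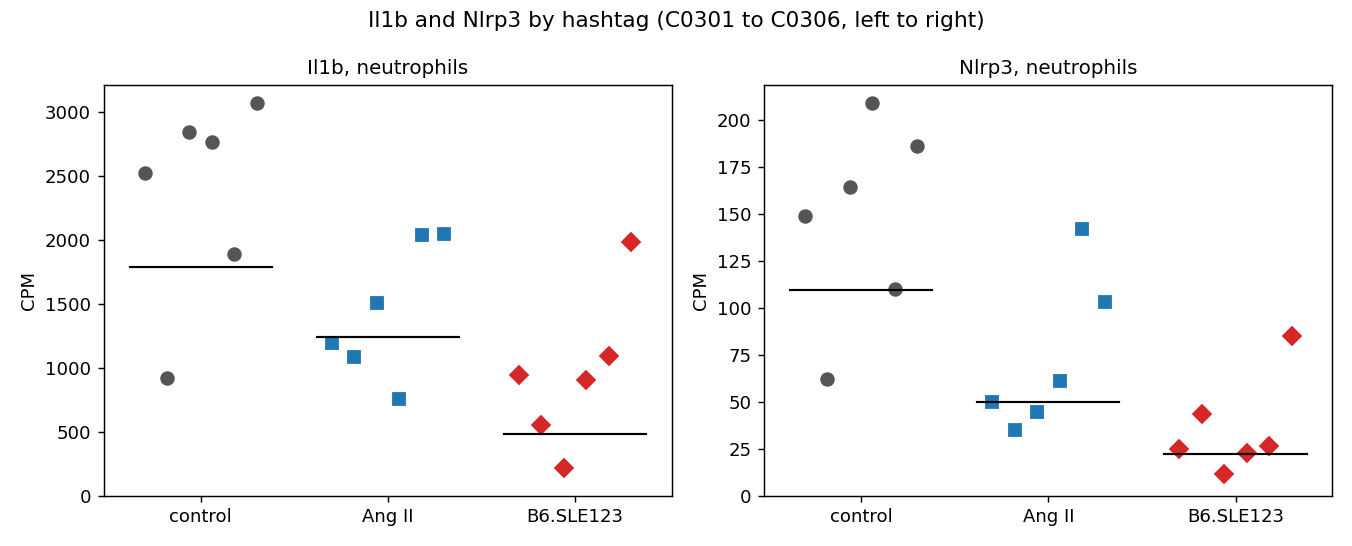
Il1b (left) and Nlrp3 (right) in neutrophils, in CPM, with 1 point for each hashtag population of the 3 libraries and a line at the level of the whole class. The lines for Il1b stand at 1786, 1243 and 483 CPM and those for Nlrp3 at 109, 49.99 and 22.2 CPM, and the points of the libraries overlap.

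Nlrp3, the sensor, followed the same order. Its control hashtag populations stood at 149, 61.8, 164, 209, 110 and 186 CPM, those of Ang II at 49.8, 34.9, 44.7, 61.0, 142 and 103 CPM, and those of B6.SLE123 at 25.03, 43.4, 11.3, 22.6, 26.6 and 85.1 CPM. Ang II C0305 and C0306 lay within the control range, as did B6.SLE123 C0306, with 3 UMIs, and the other populations of both libraries lay below it. The class levels were 109, 49.99 and 22.2 CPM, from 132, 145 and 43 UMIs, so that Nlrp3 stood 4.93-fold lower in B6.SLE123 neutrophils (log2 ratio -2.30, -2.83 to -1.79) and 2.19-fold lower in Ang II neutrophils (-1.13, -1.48 to -0.78). Without B6.SLE123 C0303 the former was -1.62. Without Ang II C0302 the latter was -0.86 and no longer past 2-fold, and it was -0.24 with limits read as UMIs and -0.64 with each cell given equal weight.

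Within the neutrophil class, nearly all UMIs of both genes lay in cells with few granule transcripts. Camp, Ngp and Ltf encode granule proteins that neutrophils transcribe while they mature, and all 3 are among the neutrophil markers. Neutrophils were split by the share of a cell's UMIs from these 3 genes, at limits of 1% and 10% that were chosen after their values had been seen beside Il1b. Cells under 1% made up 81.0%, 62.0% and 48.2% of neutrophils. They carried 2151 of 2154, 3595 of 3605 and 931 of 935 Il1b UMIs, and 131 of 132, 143 of 145 and 39 of 43 Nlrp3 UMIs. In the 74, 170 and 193 neutrophils at 10% or more, Il1b had 0, 0 and 1 UMIs and Nlrp3 0 in each, although these cells were the deepest, with medians of 6359, 9728.5 and 5731 UMIs. For a count of 0 there, 3 counts would give 5.51, 1.70 and 2.39 CPM, and the exact upper limits were 6.78, 2.09 and 2.94 CPM. The upper limit for the 1 Il1b UMI in B6.SLE123 was 4.45 CPM.

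The differences between libraries were smaller within the cells under 1%. Il1b stood at 4100 CPM (3928 to 4277) in control, 5025 CPM (4862 to 5192) in Ang II and 3151 CPM (2952 to 3360) in B6.SLE123 cells. The log2 ratio was -0.38 for B6.SLE123 (-0.49 to -0.27) and -0.14 (-0.26 to -0.014) without its C0303, and for Ang II it turned to 0.29 (0.22 to 0.37). By hashtag, the lowest, median and highest values were 3776, 4146 and 4386 CPM in control, 3933, 4632 and 6065 CPM in Ang II and 2138, 3712 and 4835 CPM in B6.SLE123. The lowest was B6.SLE123 C0303, in which 31.3% of neutrophils were under 1%, and the ranges overlapped. Nlrp3 stood at 249.7, 199.9 and 132 CPM, a B6.SLE123 log2 ratio of -0.92 (-1.47 to -0.39), or -0.75 (-1.39 to -0.15) without C0303, and an Ang II ratio of -0.32 (-0.67 to 0.03). None of the 5 members with 50 UMIs was past 2-fold in B6.SLE123, where 1.95% of 1946 genes were lower and 2.83% higher within these cells, and none of 6 in Ang II, where 0.53% of 2642 genes were lower and 1.32% higher. The total behind these CPM holds few granule transcripts, which raises the share of the other transcripts. It also leaves out the deeper granule-rich cells, so these levels are not on the scale of the whole class.

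Among the other members Il1r2, Il1rn and Casp4 were lower in CPM, and Pycard higher, in granule-rich cells in each library. Il1r2 stood at 200, 282 and 281 CPM under 1% and at 88.2, 63.5 and 59.9 CPM at 10% or more. In CPM it was thus lower in granule-rich cells but, unlike Il1b, not near 0. Per cell Il1r2 was higher in granule-rich cells, with 48 UMIs in 74 cells, 112 in 170 and 75 in 193. Under 1% it had 105 UMIs in 464 cells, 202 in 389 and 83 in 284. The granule-rich cells were deeper, with medians of 6359, 9728.5 and 5731 UMIs against 1076, 1698 and 876. Il1rn stood at 191, 233 and 247 CPM against 27.6, 23.2 and 13.6 CPM. Pycard ran the other way, with 13.3, 6.99 and 23.7 CPM under 1% (7, 5 and 7 UMIs) and 77.2, 78.2 and 66.3 CPM at 10% or more. Casp4 stood at 68.6, 47.5 and 60.9 CPM against 7.35, 7.93 and 10.4 CPM. Casp1, with 38.1, 32.2 and 23.7 CPM against 25.7, 14.7 and 22.4 CPM, and Gsdmd, with 38.1, 61.5 and 47.4 CPM against 38.6, 35.1 and 33.5 CPM, had overlapping intervals in each library. Il18 had at most 9 UMIs in any of these subsets. Most Il1b and most Pycard UMIs of the class thus lay in different neutrophils in all 3 libraries. In cells thinned to 500 UMIs, Pycard was seen in 1 of 380, 1 of 336 and 1 of 206 neutrophils with Il1b. It was seen in 9 of 193, 11 of 291 and 7 of 383 neutrophils without Il1b.

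**Figure D3:**
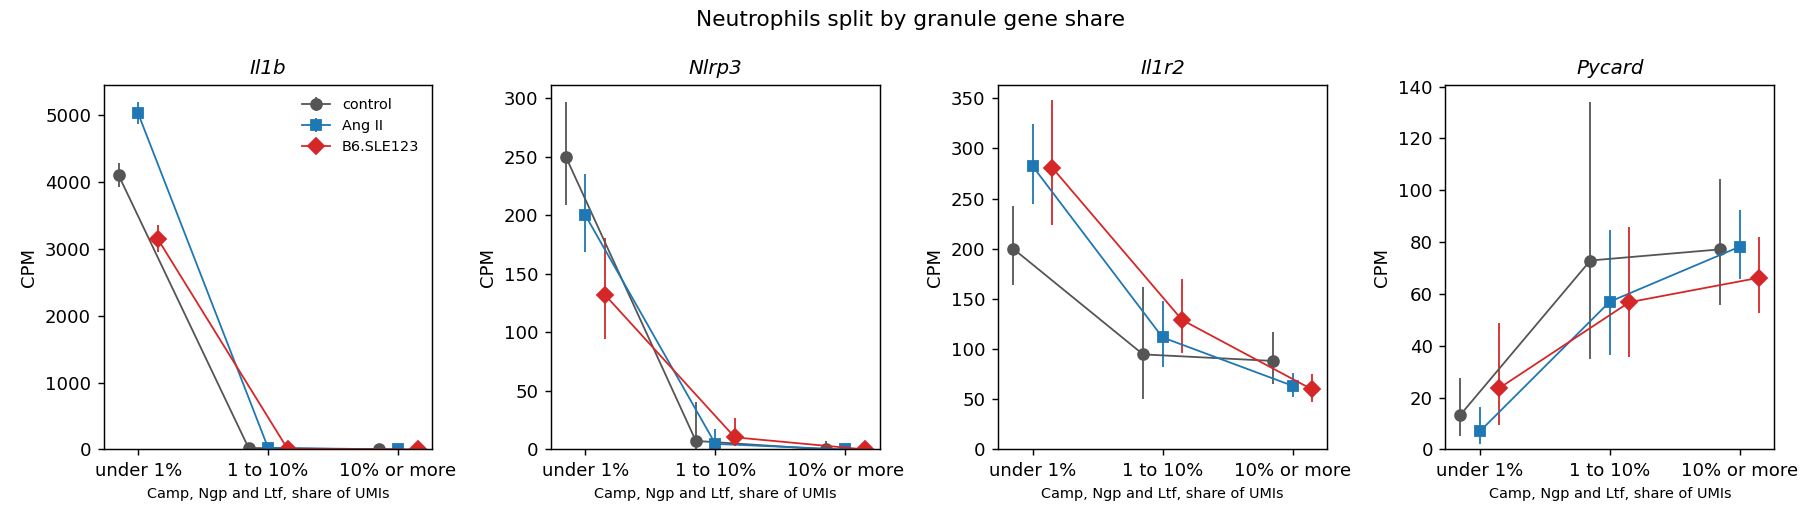
CPM of Il1b, Nlrp3, Il1r2 and Pycard, with exact 95% Poisson intervals, in neutrophils of 3 libraries split by the share of UMIs from Camp, Ngp and Ltf. Il1b goes from 4100, 5025 and 3151 CPM under 1% to 0, 0 and 0.798 CPM at 10% or more, while Pycard runs from 13.3, 6.99 and 23.7 to 77.2, 78.2 and 66.3 CPM.

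Il1rn and Il1r2, which encode the antagonist and the decoy receptor, had smaller ratios over the whole neutrophil class than Il1b in both comparisons. Il1rn stood at 104, 86.9 and 62.5 CPM in neutrophils, with hashtag ranges of 37.9 to 164, 59.6 to 167 and 39.4 to 227 CPM. Its log2 ratio was -0.74 (-1.11 to -0.37) in B6.SLE123 and -0.27 (-0.58 to 0.05) in Ang II. Il1r2 stood at 138, 124 and 107 CPM, with ratios of -0.36 (-0.66 to -0.05) and -0.15 (-0.42 to 0.13). Without B6.SLE123 C0303 the ratios were -0.20 for Il1rn and -0.14 for Il1r2. Within cells under 1% granule genes both B6.SLE123 ratios turned positive, to 0.37 (-0.08 to 0.82) for Il1rn and 0.49 (0.06 to 0.92) for Il1r2. In Ang II they were 0.29 (-0.07 to 0.66) and 0.50 (0.15 to 0.85) in those cells, where Il1b stood at 0.29, so the order of Il1r2 and Il1b turned. It also turned with limits read as UMIs (0.51 against 0.41) and with each cell given equal weight (0.21 against -0.07). In monocytes both were near 0, as neither class had more than 7 Il1rn or 3 Il1r2 UMIs in a library, and Il1r2 had 0 UMIs in 164, 82 and 228 nonclassical monocytes.

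In classical monocytes 1 of the 5 members with 50 UMIs was past 2-fold in Ang II against control, Il1b, higher, where 1.2% of 3424 genes were higher and 0.759% lower. None of 5 was past 2-fold in B6.SLE123 against control, where 2.97% of 3664 genes were higher and 1.8% lower. Of all genes 1.72% lay higher and 1.77% lower in every B6.SLE123 hashtag population than in every control one, and 2.28% higher and 2.42% lower in Ang II, and no member did. In nonclassical monocytes none of the 4 members with 50 UMIs was past 2-fold in either comparison, where 2.04% of 2690 genes were higher and 1.26% lower in B6.SLE123, and 0.746% of 2279 genes higher and 1.05% lower in Ang II. Hashtag ranges lay apart from control for 1.0% higher and 1.04% lower of all genes in B6.SLE123, for 0.921% and 1.32% in Ang II, and for no member. The medians over members and over all genes were -0.44 and 0.03 in B6.SLE123 classical monocytes, 0.11 and 0.003 in Ang II ones, -0.10 and 0.05 in B6.SLE123 nonclassical monocytes and -0.02 and -0.01 in Ang II ones.

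Il1b in Ang II classical monocytes stood at 106 CPM (54 UMIs, 71 cells) against 31.5 CPM in control (23 UMIs, 155 cells), a log2 ratio of 1.75 (1.02 to 2.52). In populations of at least 10 cells, the Ang II values were 202, 13.2, 62.7 and 48.1 CPM for C0301, C0304, C0305 and C0306. The control values were 0, 29.4, 34.3, 40.4 and 55.5 CPM for C0301, C0302, C0304, C0305 and C0306. Hashtag C0301 supplied 36 of the 54 UMIs, the ranges overlapped, and without it the ratio was 0.78. With classes taken from clusters it was 0.86, and neither was past 2-fold. Neutrophil markers summed to 368 CPM in these cells (8 of 12 markers, with a median of 2 per cell) and to 213 CPM in control (5 of 12, median 1). Their part in the result was not tested. At 500 UMIs per cell Il1b was seen in 5 of 71 Ang II and 1 of 155 control classical monocytes (29.6% and 12.9% before thinning, at medians of 7300 and 4705 UMIs). Nonclassical monocytes held more Il1b, at 172, 174 and 156 CPM, with ratios of -0.14 (-0.64 to 0.35) and 0.015 (-0.53 to 0.55) in B6.SLE123 and Ang II. Without B6.SLE123 C0303, which supplied 46 of the 70 UMIs, the former was -0.91 (-1.64 to -0.23). In the nonclassical monocytes of C0303 the neutrophil genes S100a8 and S100a9 summed to 1318 CPM, against a median of 134 CPM over the 6 hashtags, and their part in the result was not tested.

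The C1q cells of the B6.SLE123 library were high in both Il1b and Pycard. In these 125 cells, 107 of them from hashtag C0303, Il1b stood at 798 CPM (698 to 908) and Pycard at 1197 CPM (1073 to 1331), above every other class of at least 50 cells in that library for both genes. Casp1 stood at 133 CPM and Gsdmd at 63.0 CPM. Il18, Il1rn, Il1r2 and Nlrp3 had 3, 1, 1 and 1 UMIs. In the 107 cells of C0303 Il1b stood at 863 and Pycard at 1269 CPM. The control and Ang II libraries held 2 such cells each, so no ratio is given. Erythroid markers summed to 2268 CPM in the C1q cells, with a median of 0 per cell, and neutrophil markers to 196 CPM.

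Il18, the other cytokine that caspase-1 cuts, was highest in macrophages. Red pulp macrophages (29, 41 and 66 cells, of shallow depth) had 362, 493 and 408 CPM, from 15, 20 and 32 UMIs. Classical monocytes had 47.9, 25.4 and 25.2 CPM (35, 13 and 16 UMIs). The B6.SLE123 ratio in classical monocytes was -0.93 (-1.88 to -0.04), and 1 of its 16 UMIs came from C0303, which held 43 of the 131 cells, and without it the ratio was -0.25. Neutrophils had 1, 10 and 4 Il18 UMIs, so the 2 cytokine transcripts were highest in different classes.

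Pycard, the adaptor, was the most abundant member in classical monocytes. In control its values were 304, 374, 309, 330 and 200 CPM for C0301, C0302, C0304, C0305 and C0306. In B6.SLE123 they were 317, 299, 647, 341 and 367 CPM for C0301, C0302, C0303, C0305 and C0306. Hashtag C0303 stood far above the other B6.SLE123 populations, and those lay within the control range. The whole class had 449.6 CPM in B6.SLE123 and 316 CPM in control (log2 ratio 0.51, 0.25 to 0.77), and without C0303 the ratio was -0.030 (-0.37 to 0.30). Beside it, erythroid markers summed to 7474 CPM in B6.SLE123 and 1.37 CPM in control classical monocytes, with a median of 0 per cell, and C1q markers to 23.6 and 0 CPM. Their part in the result was not tested. In Ang II Pycard stood at 252 CPM, a ratio of -0.32 (-0.65 to -0.007). With limits read as UMIs it was 0.66, with a wide interval (-1.84 to 2.62) that does not settle the sign.

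In nonclassical monocytes Pycard stood at 179, 134 and 243 CPM, and the hashtag ranges were 77.6 to 268, 52.8 to 204 and 156 to 274 CPM. The B6.SLE123 ratio of 0.44 (0.003 to 0.88) turned to -0.057 with classes taken from clusters. Natural killer cells had 378, 322 and 343 CPM of Pycard, and their intervals overlapped with classical monocytes in the control and Ang II libraries. B cells had 82.4, 69.7 and 120 CPM.

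**Figure D4:**
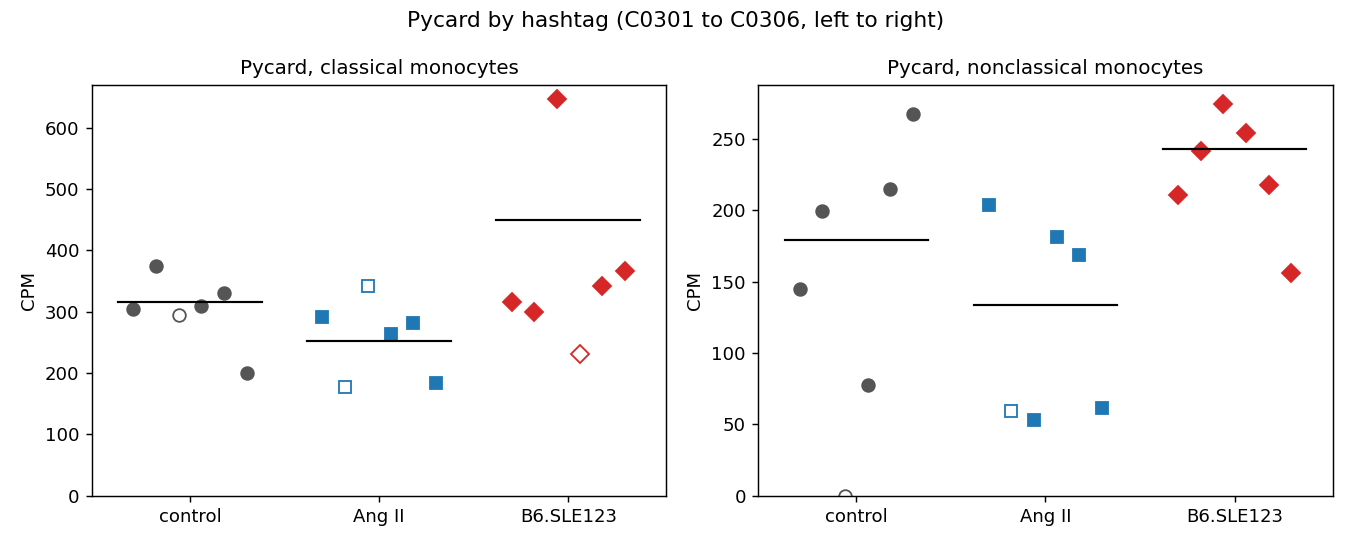
Pycard in classical (left) and nonclassical monocytes (right), in CPM, with 1 point for each hashtag population and a line at the level of the whole class. Open symbols are populations of under 10 cells. B6.SLE123 C0303 stands at 647 CPM in classical monocytes, and the other populations of at least 10 cells lie between 184 and 374 CPM.

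Casp1, Casp4 and Gsdmd, the caspases and the pore protein, stood between 18.1 and 151 CPM in neutrophils and both monocyte classes. In control classical monocytes all 3 lay above Il1b (31.5 CPM), with Casp1 at 122, Gsdmd at 69.8 and Casp4 at 61.6 CPM. Casp1 stood at 122, 82.2 and 89.6 CPM in classical and at 111, 107 and 107 CPM in nonclassical monocytes, against 30.7, 21.4 and 23.2 CPM in neutrophils. Its ratio in Ang II classical monocytes was -0.57 (-1.13 to -0.02), and the other 5 intervals included 0. The interval of Casp4 lay below 0 in B6.SLE123 in neutrophils (18.1 against 34.8 CPM, log2 ratio -0.95, -1.64 to -0.26) and in classical monocytes (31.4 against 61.6 CPM, -0.97, -1.81 to -0.18), from 20 to 45 UMIs a library. Without C0303 the neutrophil ratio was -0.46, and without control C0302 it was -1.37. In Ang II neutrophils its ratio was -0.80 (-1.40 to -0.19). Among neutrophils under 1% granule genes Casp4 had a B6.SLE123 ratio of -0.17 (-1.07 to 0.68) and an Ang II ratio of -0.53 (-1.25 to 0.19). Gsdmd stood highest in nonclassical monocytes, at 146, 151 and 132 CPM, and all 6 of its intervals included 0.

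**Figure D5:**
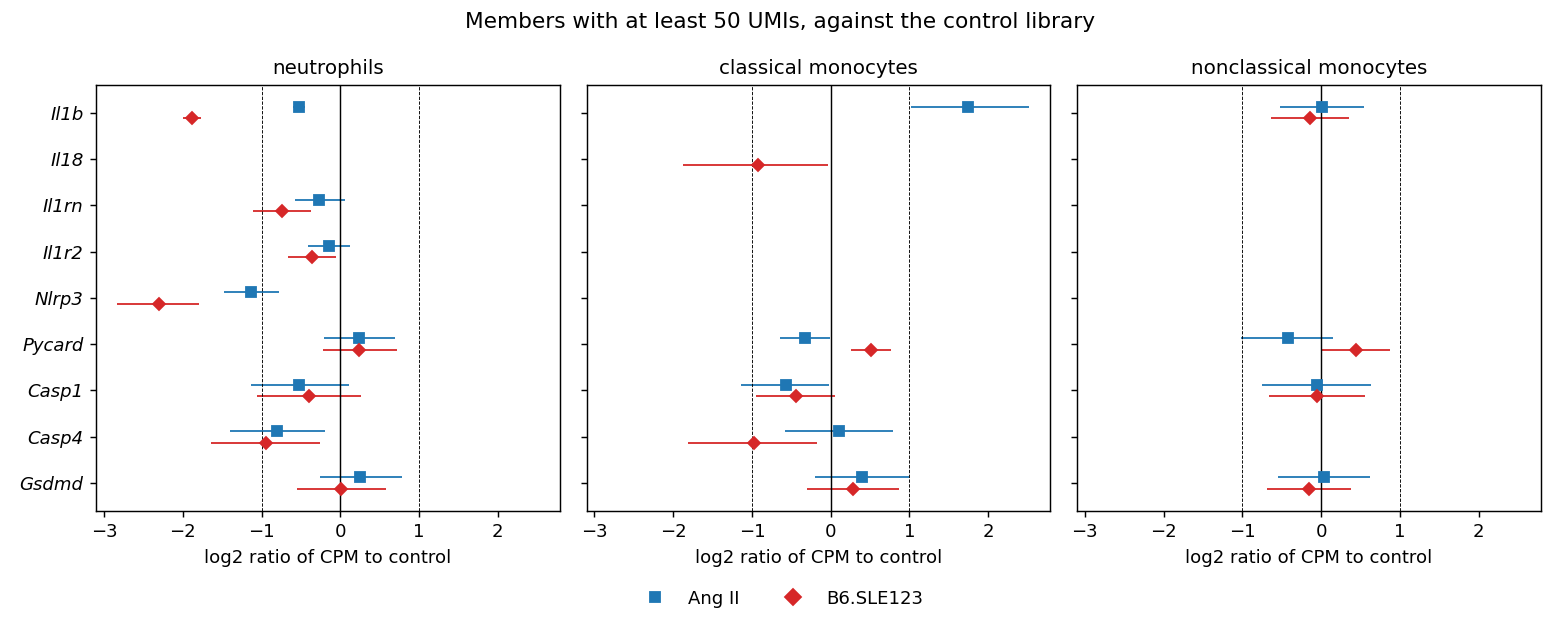
Log2 ratio of CPM to the control library, with exact 95% intervals, for members with at least 50 UMIs over both libraries in 3 classes. Dashed lines mark 2-fold. Il1b and Nlrp3 stand at -1.89 and -2.30 in B6.SLE123 neutrophils, Nlrp3 at -1.13 in Ang II neutrophils and Il1b at 1.75 in Ang II classical monocytes.

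Other genes of the pathway were taken from a list of 55 sensors, regulators and IL-1 signalling genes, of which 54 were matched. In B6.SLE123 neutrophils 23 had at least 50 UMIs, 3 were past 2-fold lower and 1 higher, with a median log2 ratio of -0.46. Of all genes 7.26% were lower and 5.42% higher there, so the 1 of 23 that was higher is near the share over all genes. The lower ones were Nlrp12 (39.3 against 100 CPM, log2 ratio -1.35), a regulatory relative of Nlrp3, Ninj1 (52.2 against 122 CPM, -1.22), whose product ruptures the membrane of dying cells, and Txnip (175 against 365 CPM, -1.06), whose product binds thioredoxin. Irak4, a kinase of IL-1 receptor signalling, had a ratio of -0.89. The higher one was Serpinb1a, which encodes an inhibitor of neutrophil proteases, at 912 against 437 CPM (1.06, 0.92 to 1.205). Without hashtag C0303 none of the 18 genes that then had 50 UMIs was past 2-fold, against 4.18% of 3466 genes lower and 2.16% higher, with ratios of -0.64 for Nlrp12, -0.95 for Ninj1, -0.37 for Txnip and 0.91 for Serpinb1a. In Ang II neutrophils 2 of 25 were past 2-fold lower, Nlrp12 (49.99 CPM, -1.01) and Gbp2 (16.2 against 39.0 CPM, -1.27), an interferon-induced GTPase, and none was higher, against 1.92% of all genes lower and 1.96% higher. Ninj1 (-0.99), Nfkbiz (-0.57) and Serpinb1a (0.57) were the next in size.

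In classical monocytes 2 of 19 were past 2-fold lower in B6.SLE123, Gbp2 (47.2 against 104 CPM, -1.14) and the DNA sensor Aim2 (31.4 against 67.0 CPM, -1.09), and 1 of 19 in Ang II, Gbp2 (50.9 CPM, -1.03), with none higher. The shares over all genes were 1.8% lower in B6.SLE123 and 0.759% lower in Ang II. Serpinb1a (0.99), the adaptor Myd88 (0.75) and Casp8 (-0.64) followed in B6.SLE123. Without C0303 Gbp2 stood at -2.10 (-3.29 to -1.10), the only one of 15 past 2-fold (1.75% of 3088 genes were lower and 1.46% higher), and Aim2 at -0.64 (-1.55 to 0.20). Nek7 (0.86), Myd88 (0.81), Irak3 (-0.68) and Mefv (0.64) followed in Ang II. In nonclassical monocytes 1 of 14 was past 2-fold higher in B6.SLE123, Irak3 (118 against 37.8 CPM, 1.65, 0.82 to 2.55), an inhibitor of IL-1 receptor signalling, against 2.04% of all genes. Gbp2 (-0.999), Aim2 (-0.74), Myd88 (0.72) and Nfkbia (0.63) followed. Without C0303 none of 9 genes was past 2-fold, against 1.44% of 2157 genes in each direction, and Irak3 no longer reached 50 UMIs. In Ang II 1 of 13 was past 2-fold higher, Myd88 (121 against 54.3 CPM, 1.15, 0.36 to 1.97), against 0.746% of all genes. Irak4 (0.95), Naip6 (0.61), Nek7 (0.50) and Txnip (0.47) followed. None was lower in nonclassical monocytes.

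Likeness between members was read across 24 pairs of cell class and library. Pearson's r of log levels was 0.84 for Il1b with Nlrp3, 0.81 for Il1b with Il1rn and 0.83 for Il1rn with Il1r2. It was lower for Nlrp3 with Il1rn (0.76), Nlrp3 with Il1r2 (0.65) and Il1b with Il1r2 (0.63). Other pairs reached similar values, with 0.73 for Casp4 with Gsdmd, 0.70 for Il18 with Gsdmd, 0.69 for Casp1 with Casp4 and 0.60 for Il1b with Gsdmd. It was -0.11 for Il1b with Pycard. Among 7973 genes the 3 nearest to Il1b were B430306N03Rik (0.94), Gcnt2 (0.93) and F630028O10Rik (0.92). Those most like Nlrp3 were Cebpd (0.96), Taldo1 (0.95) and Gm34084 (0.94), and those most like Il1r2 were Mmp25, Stfa2l1 and Dhrs9 (all 0.93). For Il1rn they were Slc7a11 (0.91), Ppp1r2 (0.91) and Atxn10 (0.90). Gsdmd was nearest to Slc41a3 (0.96), Diaph2 and Tnfrsf1b (both 0.94). Pycard was nearest to Magohb (0.90), Lgals3bp (0.87) and Rer1 (0.86), and Casp1 to Zeb2 (0.89), Orai3 (0.86) and Vmp1 (0.85). Casp4 was nearest to Xpr1 (0.90), Dstyk (0.88) and Arap1 (0.87), and Il18 to Aldh16a1 (0.88), Amz1 and Tmem106a (both 0.87). Pairs from 1 library share its depth, so these values are descriptions.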

How the data were processed

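Splenocytes of 3 libraries were measured with the 10x Genomics 5′ v2 kit. The authors mapped the reads with Cell Ranger 6.0.0 (build mm10 per the submitters' processing notes), and the deposited values were raw UMI counts of 32285 genes and 6 hashtags per barcode. Kept barcodes had over 200 and under 3500 genes and under 15% mitochondrial counts. The study states the first limits for RNA counts, which could also mean UMIs. Otsu's method set each hashtag's threshold, barcodes over several thresholds were dropped as doublets, and doublets of 1 hashtag cannot be seen this way.

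Classes were set by markers detected per cell: 5 of 12 for neutrophils, and 4 of 6 classical or 4 of 8 nonclassical markers with 3 of 5 shared ones for monocytes, with at most 1 B cell marker. The numbers of markers needed were set after marker distributions had been seen. A first version of these gates was run with Il1b levels on view, after which 2 rules of precedence between classes changed. Populations under 10 cells were left out of hashtag ranges, a limit also set after the hashtag table was seen. The members and lists were chosen with earlier results of these data known.

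Counts were summed per class and scaled to CPM with exact Poisson intervals. Log2 ratios carry exact conditional intervals, and shares Clopper-Pearson intervals, at 95%. A share or level of 0 was given with the limit of 3 counts. Past 2-fold needed at least 50 UMIs over both libraries. The named genes are the 9 members, up to 5 pathway genes per class and comparison with the largest ratios, and the 3 genes most like each member; the granule genes were chosen after their values were seen. The ratio step was tested on simulated data. Alternatives were the limits read as UMIs, no doublet removal, gates of 1 marker fewer or more, Leiden clusters made once without the members and pathway genes, TMM scaling (edgeR 4.0.16, R 4.3.3), median-of-ratios scaling, a mean over cells, each hashtag left out in turn, other minimum counts, and thinning to 500 UMIs. Neutrophils with few granule transcripts, at 4 limits, and pathway genes without B6.SLE123 hashtag C0303 were added after seeing the data, and the motifs were chosen with the results known. Python 3.11.15, scipy 1.17.1 and scanpy 1.11.5 were used. Promoter sequences are from RefSeq (GRCm38.p6), and positions from GENCODE vM21 by Ensembl identifier.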

Additional observations from a re-analysis of the deposited data

Results flagged for a closer look

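Of 31 sets of 4 to 6 hashtag populations with at least 50 UMIs of a member, 3 held a population whose gap to the nearest other exceeded Dixon's 95% limit. That limit passes about 1 in 20 sets by chance only where all values have equal spread. These populations did not, as they differed in size (18 to 249 cells in B6.SLE123 neutrophils) and each library pooled 2 conditions. The flags therefore mark values to look at and are no test. Pycard in B6.SLE123 classical monocytes stood at 647 CPM in hashtag C0303, against 299 to 367 CPM in the other 4 populations of at least 10 cells. Gsdmd in B6.SLE123 neutrophils stood at 85.1 CPM in hashtag C0306, from 3 UMIs, against 22.6 to 37.6 CPM in the others. Gsdmd in Ang II neutrophils had 0 UMIs (0 CPM) in hashtag C0305, against 33.8 to 51.1 CPM in the others.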

How the results depend on the processing

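No paired analysis was possible because each group is 1 library and the labels give no replicate numbers. The cause of the changes below was not tested. The 2 members past 2-fold in B6.SLE123 neutrophils became 1 (Nlrp3) with a mean over cells or with granule genes under 5% of UMIs, and 0 with granule genes under 0.5%, 1% or 2%. They were 2 to 3 with each hashtag left out. The 1 in Ang II neutrophils became 0 with limits read as UMIs, 1 marker more, a mean over cells, or any of the 4 granule limits, and was 0 to 2 with each hashtag left out (0 without Ang II C0302, 2 without control C0302). The 1 in Ang II classical monocytes became 0 with limits read as UMIs, 1 marker fewer or classes from clusters (ratios of Il1b 1.81, 2.20 and 0.86), 2 (Il1b and Il18) without doublet removal, and was 0 to 1 with each hashtag left out. The 0 in B6.SLE123 classical monocytes was 0 to 1 with each hashtag left out (Casp4). In nonclassical monocytes the count was 0 under every alternative run. Some log2 ratios whose interval left out 0 changed sign. The Ang II ratio of Il1b in neutrophils became 0.41 with limits read as UMIs and 0.33, 0.29, 0.31 and 0.21 with granule genes under 0.5%, 1%, 2% and 5%. At the same 4 limits the B6.SLE123 neutrophil ratio became 0.37, 0.37, 0.36 and 0.33 for Il1rn and 0.49, 0.49, 0.49 and 0.43 for Il1r2, and Il1r2 was also 0.12 with limits read as UMIs and 0.22 with a mean over cells. Pycard in Ang II classical monocytes became 0.66 with limits read as UMIs, with a wide interval (-1.84 to 2.62) that does not settle the sign. In B6.SLE123 classical monocytes Pycard became -0.030 without C0303 (-0.030 to 0.61 with each hashtag left out). Pycard in B6.SLE123 nonclassical monocytes became -0.057 with classes from clusters. The B6.SLE123 ratio of Il1b in neutrophils stayed below 0 under every alternative run, at -1.08 with limits read as UMIs, -0.92 with a mean over cells and -0.29, -0.38, -0.42 and -0.59 at the 4 granule limits, and between -2.24 and -1.14 with each hashtag left out. TMM and median-of-ratios scaling changed no count of members past 2-fold. Depth limits Casp1, Casp4, Gsdmd and Il18, with under 100 UMIs in neutrophils and each monocyte class, except Gsdmd in Ang II neutrophils (126 UMIs).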
